A study of Homo sapiens with 4 samples.

Results

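The RAS and RAF genes with NF1 are 8 genes of the growth-signalling cascade that runs from receptor tyrosine kinases to ERK. They are NRAS, HRAS, RRAS, RRAS2 and MRAS, which encode small GTPases, ARAF and BRAF, which encode kinases, and NF1, which encodes neurofibromin. The 8 genes were taken by symbol from the 64252 rows of the deposited count table. They were picked with values of these libraries in view, because NRAS was among the most strongly lowered abundant genes, so their own differences are given as a description. No p-value is given for a member, and where members are counted past the threshold used for all genes, the count supports nothing. All 8 passed the filter on low counts, as did 19767 rows in all.

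The RNA came from SK-N-BE(2) cells, a line established from a human neuroblastoma. In the shIGF2BP3 group (2 libraries) the cells carried a short hairpin RNA against IGF2BP3, and in the shControl group (2 libraries) a control hairpin. The title of the series asks whether IGF2BP3, a protein that binds mRNA carrying the m6A methyl mark, affects the stability of E2F2 mRNA. RNA levels alone were measured here, from total RNA, and neither RNA stability nor m6A was read. The labels name 1 cell line and 1 hairpin label per group and say neither how the hairpins were delivered nor whether replicates were separate cultures. P-values therefore reflect no more than how far these libraries lie apart, and that spread may be technical.

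RAS proteins are molecular switches that are active when bound to GTP and inactive when bound to GDP. Exchange factors load them with GTP, and GTPase-activating proteins such as neurofibromin speed their return to the GDP form. Active RAS recruits RAF kinases to the membrane, and these phosphorylate MEK, which phosphorylates ERK. In neuroblastoma, mutations that activate this cascade are known from relapsed tumours, and NF1 acts as a brake on it.

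Sequencing depth was 27537200 and 26755695 total counts in the shIGF2BP3 libraries, against 27977019 and 31946756 in the shControl libraries. The knocked-down gene IGF2BP3 had 813 and 875 counts in shIGF2BP3, against 4215 and 4347 in shControl (log2 fold change -2.28 with an SE of 0.09, and a Benjamini-Hochberg adjusted p of 1.655e-12 by the quasi-likelihood test of edgeR). E2F2, the transcription factor gene of the title, averaged 23.8 ± 1.24 CPM (counts rescaled so that libraries share 1 total) in shIGF2BP3 and 77.0 ± 4.28 CPM in shControl (SD, n = 2 each; log2 fold change -1.69 with an SE of 0.10, adjusted p = 1.32e-10 by the same test). Of 8 neuroblastoma markers, all were detected and tested, 6 were lower past the test and 1 was higher. Over all tested genes, 25.6% were lower and 25.9% higher. The summed level of the 8 was 6066 and 5683 CPM in shIGF2BP3, against 7377 and 7680 CPM in shControl. Most of this was MYCN, at 4187 and 3961 CPM in shIGF2BP3, against 4635 and 4848 CPM in shControl. The 6 lower ones ran from MYCN, 1.16-fold lower, to CHGA, 2.69-fold lower, and DBH was 3.18-fold higher. Of 9 fibroblast markers, 8 were tested, 4 were higher and 1 was lower. Their sums were 1053 and 1037 CPM in shIGF2BP3, against 831 and 865 CPM in shControl, and FAP was at 0 throughout. Of 7 Schwann cell and glia markers, 6 were tested, 2 were higher and 1 was lower. The lower one, GFAP, had few reads, with 0 and 0 counts in shIGF2BP3, against 13 and 19 in shControl. The sums of the 7 were 81.9 and 73.4 CPM in shIGF2BP3, against 16.1 and 16.3 CPM in shControl. Most of this was NGFR, while SOX10 was at 0 throughout. Of 7 leukocyte markers, 2 were tested, 1 was lower and none was higher. The lower one, PTPRC, had few reads, with 0 and 2 counts in shIGF2BP3, against 20 and 17 in shControl. The sums of the 7 were 3.56 and 2.70 CPM in shIGF2BP3, against 3.08 and 2.43 CPM in shControl, and CD3E and LYZ were at 0 throughout. The part of these markers in the values below was not tested. In bulk RNA, fewer cells expressing a gene and less RNA per cell cannot be told apart.

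NRAS stood apart from the other members in size of difference. Among the 8 members, 4 were lower in shIGF2BP3 past an adjusted p of 0.05 (NRAS, RRAS, RRAS2 and BRAF), where 25.6% of all tested genes were lower. Another 3 were higher (MRAS, ARAF and NF1), where 25.9% of all tested genes were higher, and HRAS was not past the threshold. In all, 51.5% of tested genes were past it in either direction. The median log2 fold change of the 8 members was -0.17, against 0.0094 over all tested genes. In 7 of the 8 the libraries of the groups did not overlap, 3 higher and 4 lower, as in 74.5% of all tested genes (37.8% higher and 36.7% lower). The members were chosen on this comparison, so nothing is read from these counts. Without any single library the number of members called higher was 1, since ARAF and NF1 were no longer past the threshold. BRAF lost its place past the threshold without shIGF2BP3 replicate 1, without shIGF2BP3 replicate 2 and without shControl replicate 1.

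**Figure D1:**
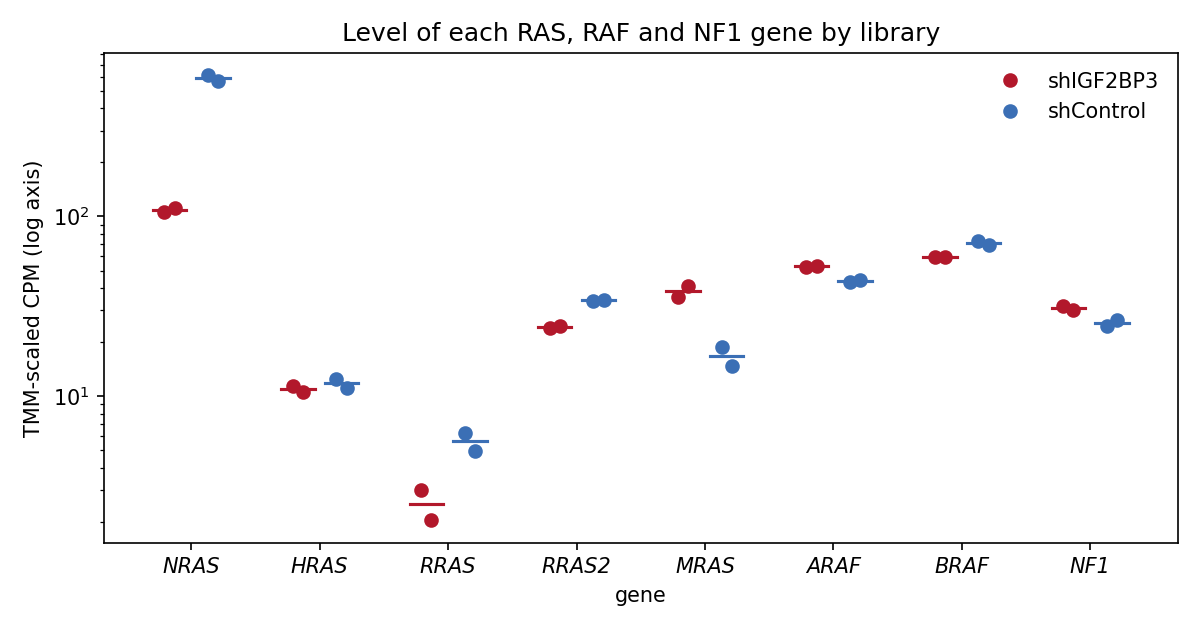
TMM-scaled CPM of each of the 8 genes in each library, with shIGF2BP3 left of shControl; points are libraries and lines are group means (n = 2 each), on 1 shared log axis. NRAS lies at 106.3 and 110.9 CPM in shIGF2BP3, against 610.2 and 565.1 CPM in shControl, while the HRAS libraries of the groups overlap.

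NRAS, the gene of the GTPase named for its discovery in neuroblastoma, was the most abundant and the most strongly lowered member. The gene is ENSG00000213281, at chr1:114704469-114716894 on GRCh38, minus strand, in the annotation of GENCODE release 29. NRAS received 3012 and 3043 counts in shIGF2BP3, against 16430 and 17690 in shControl. On the CPM scale this was 106.3 and 110.9 in shIGF2BP3, against 610.2 and 565.1 in shControl. Both shIGF2BP3 libraries lay far below both shControl libraries, and replicates within a group lay close together. The means were 108.6 ± 3.25 CPM in shIGF2BP3 and 587.7 ± 31.8 CPM in shControl (SD, n = 2 each), a 5.41-fold lower level. The log2 fold change was -2.44 (SE 0.07), and it stayed between -2.51 and -2.35 over the main and 12 other settings.

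Among the 2411 tested genes with a mean of at least 100 CPM in shControl, NRAS had the 20th lowest log2 fold change. The genes just further down were PRC1 (-2.48), PTTG1 (-2.45) and HMGB3 (-2.44), of which PRC1 bundles microtubules in cell division, PTTG1 is securin and HMGB3 is a chromatin protein. The genes just less lowered were CCNB2 (-2.42), a mitotic cyclin, DLGAP5 (-2.41), a spindle protein, and PSAT1 (-2.38), an enzyme of serine synthesis. Over all tested genes of any abundance, NRAS ranked 245th from the lowest, and 3.45% of tested genes had a larger absolute log2 fold change. The genes of that abundance whose centred log2 CPM over the 4 libraries was nearest to that of NRAS, of 2410 compared, were BUB1B, PSAT1 and NCAPG. Their root mean square differences from NRAS were 0.0397, 0.0537 and 0.0560 on the log2 scale. BUB1B, a mitotic checkpoint kinase, had 35.1 and 37.2 CPM in shIGF2BP3, against 190.6 and 182.8 CPM in shControl. NCAPG, a subunit of the condensin complex, had 33.8 and 38.0 CPM in shIGF2BP3, against 195.1 and 174.3 CPM in shControl. With 4 libraries in 2 groups, such a likeness is mostly a likeness in the group difference.

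On the 3′ side of NRAS, 8850 bases away, AMPD1, a muscle enzyme of purine metabolism, had 0 counts in all 4 libraries, which allows up to 0.0958 to 0.111 CPM per library.

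**Figure D2:**
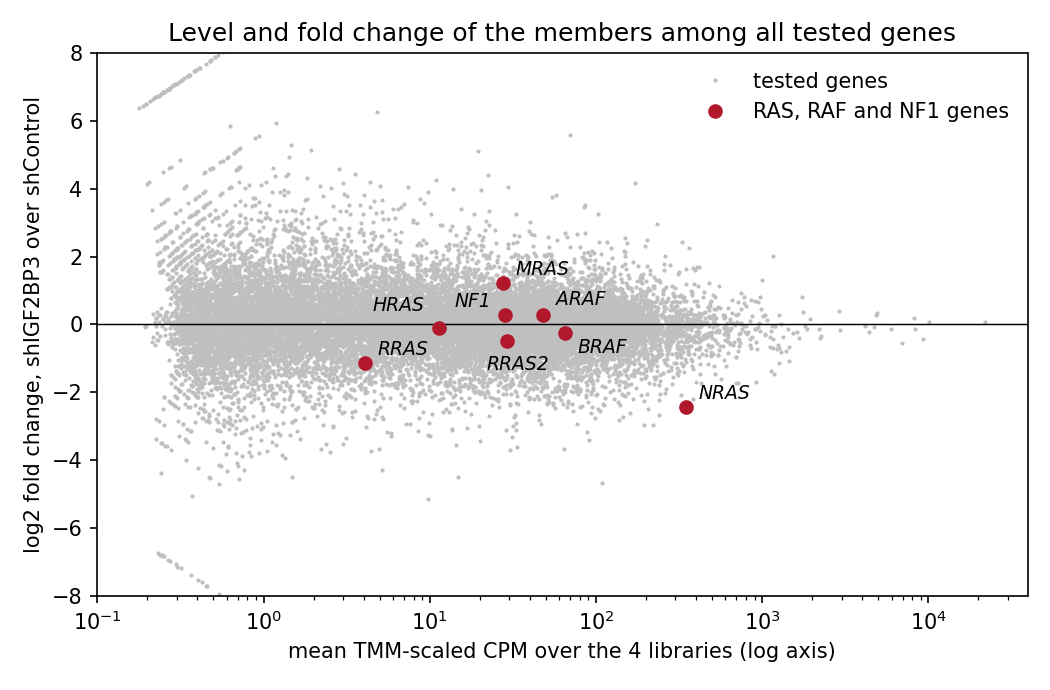
Log2 fold change (shIGF2BP3 over shControl) against the mean TMM-scaled CPM over the 4 libraries (log axis) for all tested genes in grey, with the 8 members in red; 16 genes outside the plotted range of -8 to 8 are left out, and the slanted streaks at the left are genes with few counts. NRAS, at -2.44, lies at the lower edge of the genes of its abundance, and HRAS, at -0.10, lies near 0.

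The promoter of NRAS is shown because it is the strongly lowered member and its window alone among the members' windows holds the E-box word CACGTG. The RefSeq table of promoters (build GRCh38.p14, 250 bases before to 50 after a start) held 12 windows for 7 of the 8 genes. The stretch below lies at chr1:114716809-114716838 on the minus strand, and its capitals mark the E-box word and the GC-box word GGGCGG.
NRAS promoter: ttcggaggccCACGTGgccgGGGCGGggac
The E-box word begins 57 bases before the RefSeq start. GENCODE release 29 starts NRAS further upstream, at 114716894, so the same bases lie in the 5′ UTR of its transcript. CACGTG, read on both strands, is the core word bound by MYC-family factors, and 7.43% of 27305 windows (1 per gene) hold it. The GC-box word GGGCGG was in 44.6% of windows, and 4 of the 7 members with a window hold it. The ETS word CCGGAAG, which 10.7% of windows hold, was in windows of 3 members, NRAS included. None of the E2F words TTTGGCGC, TTTCGCGC, TTTCCCGC and TTTGCCGC was in any member's window, where 3.33% of windows hold one. The words CCAAT (35.7% of windows) and TGACGTCA (1.98%) were in windows of 3 members and of 1 member, and not in that of NRAS. No word searched contains another, and a match describes these letters and is no measure of binding.

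The 3′ UTRs of NRAS and MRAS each hold 1 match to the seed of let-7, a family of miRNAs known to lower RAS mRNAs and in other cells to act against IGF2BP mRNAs. The mature miRNA is shown with its seed (bases 2 to 8) in capitals, from the RefSeq table (GRCh38.p14, where the gene MIRLET7A1 gives it at chr9:94175962-94175983, plus strand). The 22-base sites, from GENCODE release 29 transcripts, have the word CTACCTC in capitals, which pairs with the seed.
let-7a-5p: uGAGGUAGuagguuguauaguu
NRAS site: ttctcagaataaCTACCTCctc
MRAS site: tgtgctgtgttcCTACCTCggc
The NRAS site lies at chr1:114707899-114707920 on the minus strand, and its word begins at base 186 of a 3′ UTR of 3625 bases. The MRAS site lies at chr3:138403905-138403926 on the plus strand, and its word begins at base 1648 of a 3′ UTR of 3264 bases. The word, searched on the transcript strand, was in no 3′ UTR of the other 6 members, in the transcript with the longest coding sequence. The 3′ UTR searched had 3522 bases in NF1. It was far shorter in RRAS2 (587), ARAF (463), HRAS (393), RRAS (284) and BRAF (125), so a match there had less room to occur. Among 13409 tested genes whose 3′ UTR had 50 bases or more, with a median length of 1041 bases, 9.72% hold the word. The genes with the site differed in direction, NRAS being 5.41-fold lower and MRAS 2.32-fold higher in shIGF2BP3. Levels of let-7 were not measured in these libraries.

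The word GGACT, a common setting of m6A, is shown in NRAS because IGF2BP3 reads that mark. It occurred 3 times in the NRAS transcript of GENCODE release 29, and each site is given with the word in capitals.
NRAS 5′ UTR: cggggcggGGACTcaggcgcc
NRAS coding: tgatgatgGGACTcagggttg
NRAS 3′ UTR: taaacaagGGACTataattct
The first site is upstream of the RefSeq start and overlaps the promoter stretch above, so it is in the transcript only with the GENCODE start. These sites lie on the minus strand at chr1:114716800-114716820, chr1:114708563-114708583 and chr1:114704926-114704946. Per kilobase of the GENCODE transcript NRAS held 0.674 such words. The median was 0.946 over the 13409 tested genes whose 3′ UTR had 50 bases or more. Among the other members the density was highest in ARAF, at 2.40 per kilobase, and lowest in NF1, at 0.644. Whether any of these sites carries m6A was not measured.

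HRAS, the GTPase gene first found as a viral oncogene, had overlapping groups and the smallest difference. It (ENSG00000174775, chr11:532242-537287, minus strand) had 325 and 288 counts in shIGF2BP3, against 335 and 349 in shControl. That was 11.5 and 10.5 CPM in shIGF2BP3, against 12.4 and 11.1 CPM in shControl. The higher shIGF2BP3 library lay above the lower shControl library. The log2 fold change was -0.10 (SE 0.16), with a range of -0.20 to -0.02 over the settings, and 89.4% of tested genes had a larger absolute change.

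RRAS and RRAS2, which encode the R-RAS branch known for roles in adhesion, were both lower. RRAS (ENSG00000126458, chr19:49635292-49640201, minus strand) had 85 and 56 counts in shIGF2BP3, against 169 and 156 in shControl. Its level averaged 2.52 ± 0.678 CPM in shIGF2BP3 and 5.63 ± 0.914 CPM in shControl (SD, n = 2 each), a 2.21-fold lower mean. The groups did not overlap, although the counts were the lowest of any member and its log2 fold change of -1.14 had the widest error (SE 0.28). Over the settings that value ran from -1.45 to -0.89.

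RRAS2, also called TC21, differed less but with tight replicates. It (ENSG00000133818, chr11:14277926-14364506, minus strand) had 675 and 677 counts in shIGF2BP3, against 916 and 1077 in shControl. Its level was 23.8 and 24.7 CPM in shIGF2BP3, against 34.0 and 34.4 CPM in shControl. Both shIGF2BP3 libraries lay below both shControl libraries, and the log2 fold change was -0.50 (SE 0.11). That places RRAS2 near the middle of all genes, 51.0% of which had a larger absolute change.

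MRAS, whose product forms a phosphatase complex with SHOC2 that acts on RAF, was the RAS gene that was higher. It (ENSG00000158186, chr3:138347648-138405534, plus strand) had 1013 and 1130 counts in shIGF2BP3, against 503 and 459 in shControl. Its level was 35.8 and 41.2 CPM in shIGF2BP3, against 18.7 and 14.7 CPM in shControl. The lowest shIGF2BP3 library stood well above the highest shControl library. The log2 fold change was 1.21 (SE 0.13), a 2.32-fold higher mean, and it ranged from 1.02 to 1.39 over the settings.

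The RAF kinase genes differed little and in opposite directions. ARAF (ENSG00000078061, chrX:47561100-47571920, plus strand) had 1484 and 1457 counts in shIGF2BP3, against 1167 and 1380 in shControl. As CPM this was 52.4 and 53.1 in shIGF2BP3, against 43.3 and 44.1 in shControl. The groups did not overlap after scaling, and the log2 fold change was 0.27 (SE 0.09), a 1.21-fold higher mean. BRAF (ENSG00000157764, chr7:140719327-140924928, minus strand) had 1696 and 1638 counts in shIGF2BP3, against 1955 and 2166 in shControl. As CPM this was 59.9 and 59.7 in shIGF2BP3, against 72.6 and 69.2 in shControl. Its log2 fold change was -0.25 (SE 0.08), a 1.19-fold lower mean, and -0.16 when libraries were scaled by their totals alone, where it was not past the threshold.

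NF1, the GTPase-activating protein gene whose loss causes neurofibromatosis, was slightly higher. It (ENSG00000196712, chr17:31094927-31382116, plus strand) had 898 and 830 counts in shIGF2BP3, against 660 and 827 in shControl. As CPM this was 31.7 and 30.3 in shIGF2BP3, against 24.5 and 26.4 in shControl. The CPM values did not overlap, although the lower shIGF2BP3 count was within 3 of the higher shControl count. The log2 fold change was 0.28 (SE 0.11), a 1.21-fold higher mean, and NF1 was not past the threshold with DESeq2, without the filter on low counts or without any single library. For ARAF, BRAF and NF1 between 69.9% and 73.7% of tested genes had a larger absolute change.

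Genes that share ground with the members held few counts or did not move with them. SYN1, a synapse gene on the opposite strand, overlaps ARAF by 23 bases and stood at -0.26 on the log2 scale, with an SE of 0.11 and an adjusted p of 0.0667 from edgeR. NDUFB2, a gene of mitochondrial complex I on the opposite strand, overlaps BRAF by 3464 bases and had 50.8 and 50.7 CPM in shIGF2BP3, against 52.1 and 47.3 CPM in shControl. OMG, EVI2A and EVI2B, which sit in an intron of NF1 on the opposite strand, had at most 11 counts in any library. AK4P1, a pseudogene within NF1, had 40 and 36 counts in shIGF2BP3, against 20 and 59 in shControl. No annotated gene overlaps NRAS, HRAS, RRAS, RRAS2 or MRAS. Pseudogene rows of NF1 and ARAF were at 0 in all 4 libraries, and those of RRAS2 and BRAF had at most 22 counts. The strand setting and the counting of reads with several matches are not stated in the labels or the file, so reads of overlapping genes may sit with either gene.

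Levels were compared between genes as CPM per kilobase of merged exons. That length was 4449 bases for NRAS, 23432 for BRAF and 27130 for NF1. The longest transcripts had 4449, 9578 and 12425 bases, so the place of BRAF and NF1 depends on the length used. The BRAF transcript with the longest coding sequence had 2549 bases, and levels by that length were not computed. A shorter length gives a higher level per kilobase. The orders below hold only for merged exons and longest transcripts, and they do not settle the place of BRAF, also against ARAF and RRAS2. NRAS had 24.4 ± 0.731 CPM per kilobase in shIGF2BP3 and 132 ± 7.16 in shControl (SD, n = 2 each), the highest level of the 8 in either group. ARAF came next, with 14.9 ± 0.145 in shIGF2BP3 and 12.4 ± 0.149 in shControl, and RRAS2 after it, with 7.02 ± 0.174 in shIGF2BP3 and 9.91 ± 0.0795 in shControl. In shIGF2BP3 the order then ran MRAS (6.04), HRAS (5.92), BRAF (2.55), RRAS (2.17) and NF1 (1.14). There MRAS and HRAS overlapped, as did BRAF and RRAS. In shControl it ran HRAS (6.36), RRAS (4.85), BRAF (3.03), MRAS (2.62) and NF1 (0.939), with no overlap between neighbours. By the length of the longest transcript, NRAS, ARAF and RRAS2 were again the first, in that order. In shIGF2BP3 the mean of HRAS then stood above that of MRAS (8.91 against 8.48), and NF1 above RRAS (2.49 against 2.41). The libraries of both pairs overlapped, so neither order is clear. In shControl BRAF stood above RRAS (7.40 against 5.39), without overlap.

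NRAS made up a smaller share of the summed level of the 5 RAS genes given here, which are not all RAS genes. Its share of their summed CPM per kilobase was 52.9% and 54.2% in shIGF2BP3, against 84.6% and 84.9% in shControl. The sum itself was 45.2 and 46.0 CPM per kilobase in shIGF2BP3, against 162.1 and 149.6 in shControl. Without NRAS the sum was 21.3 and 21.0 in shIGF2BP3, against 24.9 and 22.6 in shControl. Nearly all of the difference in the sum was thus NRAS, and the other 4 genes together lay slightly lower in shIGF2BP3. MRAS made up 12.4% and 14.1% of the sum in shIGF2BP3, against 1.81% and 1.54% in shControl. RRAS2, whose own level was lower in shIGF2BP3, held 15.3% and 15.5% in shIGF2BP3, against 6.08% and 6.66% in shControl. RRAS, also lower in its own level, held 5.72% and 3.83% in shIGF2BP3, against 3.34% and 2.87% in shControl. HRAS, whose own level overlapped between groups, held 13.7% and 12.3% in shIGF2BP3, against 4.14% and 4.02% in shControl. By the longest transcript the NRAS share was 43.5% ± 0.787 in shIGF2BP3 and 78.8% ± 0.0876 in shControl (SD, n = 2 each). These shares follow from values used to choose NRAS and are a description.

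**Figure D3:**
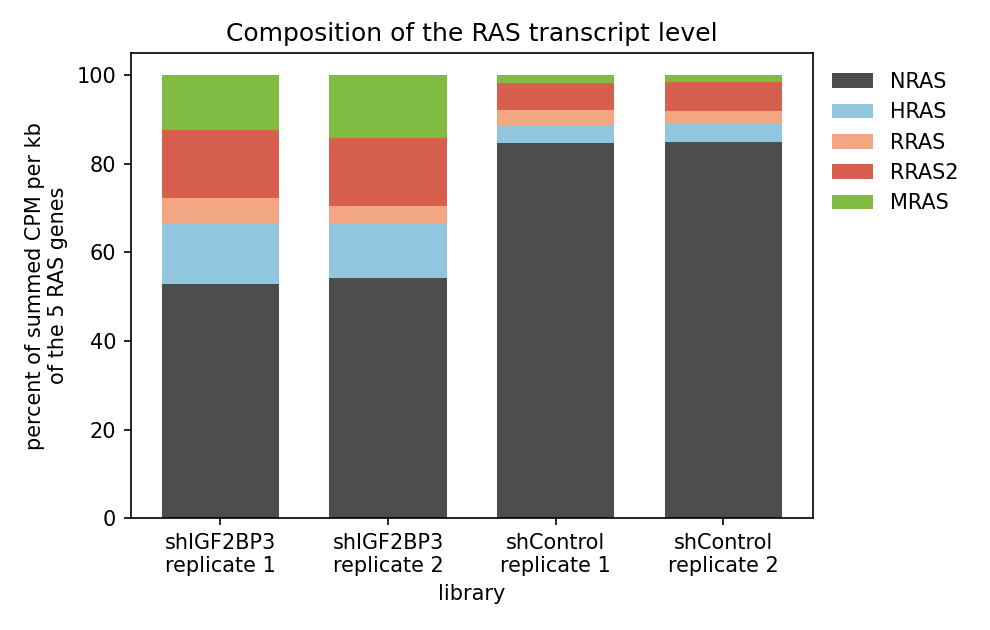
Share of the summed CPM per kilobase of merged exons (percent, stacked to 100) held by each of NRAS, HRAS, RRAS, RRAS2 and MRAS in each library, with the shIGF2BP3 libraries left of the shControl libraries. NRAS holds 52.9% and 54.2% in shIGF2BP3, against 84.6% and 84.9% in shControl, and MRAS holds 12.4% and 14.1% in shIGF2BP3, against 1.81% and 1.54% in shControl.

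Around the members, 82 other genes of the cascade, which are not all of its genes, were taken by role, and 74 of them were tested. Among these, 20 were higher and 32 were lower in shIGF2BP3 past an adjusted p of 0.05, with a median log2 fold change of -0.21, against 25.9% higher, 25.6% lower and a median of 0.0094 over all tested genes. The p-values that follow come from edgeR by the quasi-likelihood test and are adjusted over all tested genes by the Benjamini-Hochberg method.

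Of the exchange factors that load RAS with GTP, 6 of 8 were tested, 4 rose, 1 fell and 1 was not past the test, and the median log2 fold change was 0.46. SOS1, the main factor downstream of receptor kinases, had 198.0 ± 15.5 CPM in shIGF2BP3 and 155.3 ± 1.28 in shControl (log2 0.35, adjusted p = 0.00049). SOS2, its paralog, had 82.7 ± 3.75 CPM in shIGF2BP3 and 56.0 ± 0.679 in shControl (log2 0.56, adjusted p = 1.668e-05). RASGRP1, a factor that responds to diacylglycerol, had 16.5 ± 0.868 CPM in shIGF2BP3 and 6.12 ± 0.880 in shControl (log2 1.42, adjusted p = 2.119e-06). RASGRP2 had 7 and 0 counts in shIGF2BP3, against 29 and 76 in shControl (log2 -3.80, adjusted p = 0.000691), so its fold change rests on very few reads, being -2.84 without shIGF2BP3 replicate 2, while without shIGF2BP3 replicate 1 no count is left in that group. RASGRF2 rose (log2 0.97, adjusted p = 0.0132), though not without shIGF2BP3 replicate 1 (0.93, adjusted p = 0.0607), without shControl replicate 1 (0.77, adjusted p = 0.0929) or with DESeq2 (adjusted p = 0.0530).

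Of the GTPase-activating proteins other than NF1, which switch RAS off, 7 are reported here, which are not all of them. Of these, 5 were tested, 1 rose, 3 fell and 1 was not past the test, and the median was -0.76. DAB2IP fell to 44.6 ± 4.06 CPM in shIGF2BP3, against 99.4 ± 12.5 in shControl (log2 -1.16, adjusted p = 3.949e-08). RASA1, which encodes p120 RasGAP, fell to 31.0 ± 1.62 CPM in shIGF2BP3, against 52.5 ± 0.344 in shControl (log2 -0.76, adjusted p = 3.189e-06). RASA3 fell as well (log2 -0.76, adjusted p = 6.2e-05). RASAL2 rose (log2 1.15, adjusted p = 0.000127). NF1, at 0.28, thus lay between them. RASA2 was at -0.24 (adjusted p = 0.110), and at -0.40 without shControl replicate 2.

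Of the proteins that partner RAF or NF1, 12 of 13 were tested, 1 rose, 4 fell and 7 were not past the test, and the median was -0.17. SPRED1, which brings neurofibromin to the membrane, fell to 44.3 ± 1.48 CPM in shIGF2BP3, against 79.6 ± 1.35 in shControl (log2 -0.84, adjusted p = 1.852e-07). Its paralog SPRED2 was at 0.16 (adjusted p = 0.0604), and at 0.21 without shControl replicate 1. SPRED2 was past the test with scaling by library totals (0.24, adjusted p = 0.00601) and with a filter of 20 counts in 2 libraries (0.17, adjusted p = 0.0461). LZTR1, an adaptor for the degradation of RAS proteins, rose to 109.0 ± 1.20 CPM in shIGF2BP3, against 71.2 ± 3.29 in shControl (log2 0.61, adjusted p = 2.933e-06). PEBP1, an inhibitor of RAF signalling, fell (log2 -0.46, adjusted p = 9.016e-06). Among the parts of the phosphatase complex that MRAS joins, SHOC2 had 56.8 and 56.8 CPM in shIGF2BP3, against 73.1 and 63.1 in shControl (log2 -0.26, adjusted p = 0.0239), a fall that was not past the test without shIGF2BP3 replicate 1 (-0.26, adjusted p = 0.0796), without shIGF2BP3 replicate 2 (-0.26, adjusted p = 0.0807) or without shControl replicate 1 (-0.15, adjusted p = 0.256). SHOC2 was also not past the test with scaling by library totals (adjusted p = 0.110) or without the filter on low counts (adjusted p = 0.0889). The phosphatase subunit gene PPP1CA fell (log2 -0.73, adjusted p = 9.342e-08), while PPP1CB (log2 -0.04) and PPP1CC (log2 -0.01) were not past the test.

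Downstream of RAF, the 7 MEK, ERK and RSK kinase genes reported here, which are not all of the genes of these families, were lower past the test, with a median of -0.58. MAP2K1, which encodes MEK1, fell to 34.6 ± 2.03 CPM in shIGF2BP3, against 59.8 ± 3.09 in shControl (log2 -0.79, adjusted p = 1.661e-06). MAP2K2, which encodes MEK2, fell to 113.3 ± 7.88 CPM in shIGF2BP3, against 162.1 ± 6.07 in shControl (log2 -0.52, adjusted p = 1.322e-05). MAPK3, which encodes ERK1, fell (log2 -0.32, adjusted p = 0.0162), though not without shIGF2BP3 replicate 1 (-0.34, adjusted p = 0.0545), shIGF2BP3 replicate 2 (-0.30, adjusted p = 0.0827) or shControl replicate 1 (-0.27, adjusted p = 0.0860), nor with scaling by library totals (-0.24, adjusted p = 0.0643). The RSK genes RPS6KA1 (log2 -0.90), RPS6KA2 (-0.85), RPS6KA6 (-0.58) and RPS6KA3 (-0.29) all fell.

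**Figure D4:**
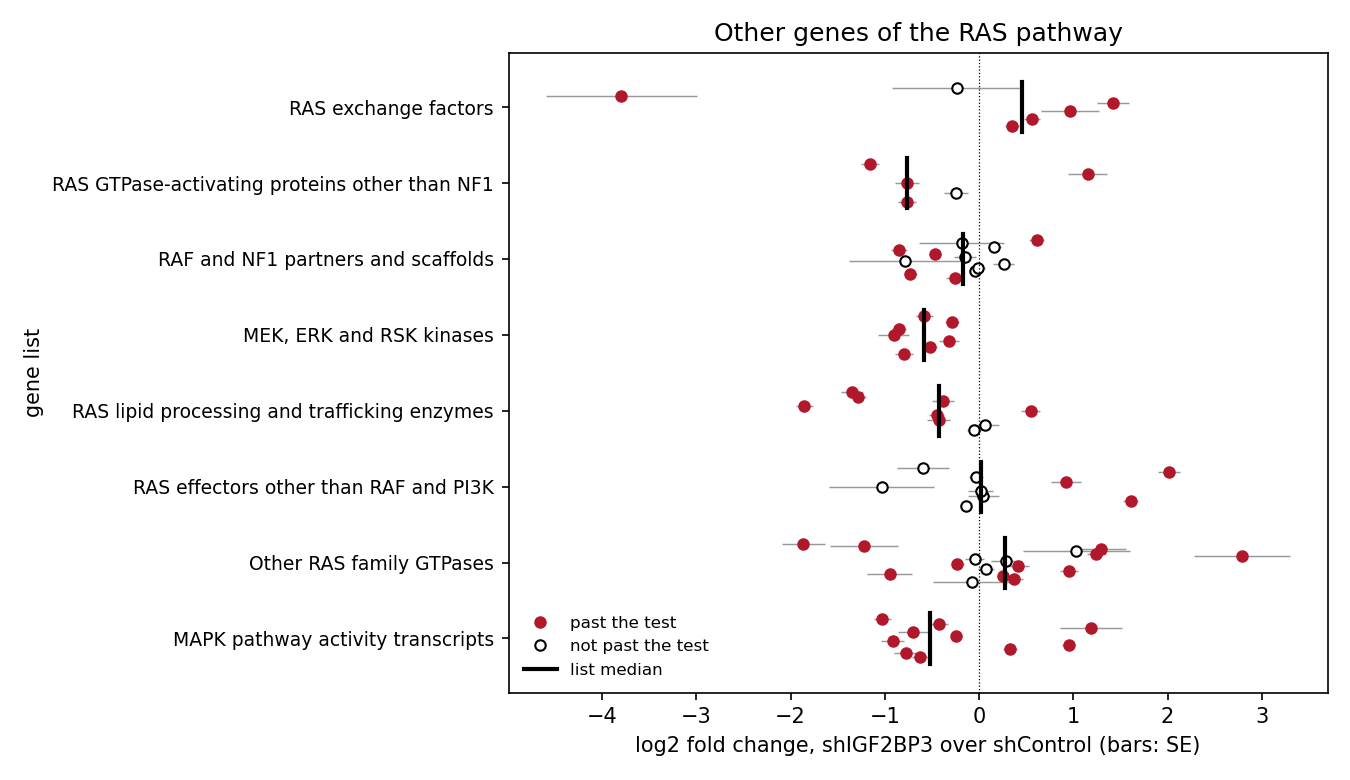
Log2 fold change (shIGF2BP3 over shControl) of each tested gene in 8 lists around the members, as points with SE bars, filled where past an adjusted p of 0.05, with the list's median as a black line. The lowest median is that of the GTPase-activating proteins (-0.76, 5 tested genes), and the highest that of the exchange factors (0.46, 6 tested genes). In both lists the genes lie on either side of 0. The activating proteins run from DAB2IP at -1.16 to RASAL2 at 1.15, and the exchange factors from RASGRP2 at -3.80 to RASGRP1 at 1.42.

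Of 9 enzymes and carriers that process the lipid tails of RAS or move it between membranes, all were tested, 1 rose, 6 fell and 2 were not past the test, and the median was -0.43. GOLGA7, the partner of ZDHHC9 in the enzyme that palmitoylates NRAS and HRAS, fell to 31.9 ± 0.116 CPM in shIGF2BP3, against 115.4 ± 6.53 in shControl (log2 -1.85, adjusted p = 1.033e-11). ZDHHC9 itself rose (log2 0.55, adjusted p = 0.000115). The thioesterase genes LYPLA1 (log2 -1.28, adjusted p = 2.236e-10) and LYPLA2 (log2 -1.35, adjusted p = 2.479e-08), whose products can remove palmitate, fell. ICMT (log2 -0.45), RCE1 (log2 -0.43) and PDE6D (log2 -0.38) fell too, while the farnesyltransferase genes FNTA (log2 -0.05) and FNTB (log2 0.06) were not past the test. RCE1 was not past it without shControl replicate 1 (-0.33, adjusted p = 0.0577), nor PDE6D without shIGF2BP3 replicate 2 (-0.30, adjusted p = 0.126).

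Of 10 RAS effectors outside the RAF and PI3K families, 9 were tested, 3 rose, none fell and 6 were not past the test, and the median was 0.02. PLCE1, a phospholipase C activated by RAS, rose to 51.3 ± 1.47 CPM in shIGF2BP3, against 12.7 ± 0.205 in shControl (log2 2.02, adjusted p = 9.962e-11). RGL1, an exchange factor for RAL, rose to 192.2 ± 7.89 CPM in shIGF2BP3, against 63.0 ± 2.90 in shControl (log2 1.61, adjusted p = 1.014e-11), and RIN1 rose (log2 0.92, adjusted p = 0.000115). AFDN had 74.9 and 71.7 CPM in shIGF2BP3, against 87.1 and 133.0 CPM in shControl (log2 -0.59, adjusted p = 0.203). Its shControl libraries lay far apart, and AFDN was at -0.86 without shControl replicate 1 and at -0.27 without shControl replicate 2. Those fits keep a lone shControl library, so they measure no spread within shControl.

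Of 18 other RAS family genes, 16 were tested, 7 rose, 4 fell and 5 were not past the test, and the median was 0.27. RIT1, a GTPase close to the RAS proteins, rose to 56.9 ± 0.606 CPM in shIGF2BP3, against 24.0 ± 0.0708 in shControl (log2 1.25, adjusted p = 7.786e-09). RAP2C (log2 0.95), RASD1 (log2 1.29), DIRAS2 (log2 2.79), RALB (log2 0.42), RAP1B (log2 0.37) and RAP2A (log2 0.26) also rose, DIRAS2 with a level under 1 CPM in shControl. RERG, a growth inhibitor, fell to 2.74 ± 0.0369 CPM in shIGF2BP3, against 9.98 ± 0.566 in shControl (log2 -1.87, adjusted p = 1.92e-06), and RASD2 (log2 -1.22), RAP2B (log2 -0.95) and RHEB (log2 -0.23) fell. Without 1 library some of these were not past the test. These were RALB (0.31, adjusted p = 0.0820) and RAP1B (0.20, adjusted p = 0.0824) without shControl replicate 2, RAP2B without shIGF2BP3 replicate 1 (-0.71, adjusted p = 0.0541), and RAP2A without shIGF2BP3 replicate 2 (0.22, adjusted p = 0.0522) or shControl replicate 2 (0.20, adjusted p = 0.0583). RASD2 was at -0.92 without shIGF2BP3 replicate 2 (adjusted p = 0.0875) and at -0.72 without shControl replicate 2 (adjusted p = 0.195), and was not past the test without the filter on low counts (-1.21, adjusted p = 0.0782). RHEB was at -0.22 without shIGF2BP3 replicate 1 (adjusted p = 0.0645), -0.23 without shIGF2BP3 replicate 2 (adjusted p = 0.0527), -0.18 without shControl replicate 1 (adjusted p = 0.104) and -0.15 with scaling by library totals (adjusted p = 0.0843). RAP1A had 66.2 and 34.9 CPM in shIGF2BP3, against 53.3 and 53.2 CPM in shControl. Its direction was set by which shIGF2BP3 library was kept, at 0.32 without shIGF2BP3 replicate 2 and -0.61 without shIGF2BP3 replicate 1. Those fits keep a lone shIGF2BP3 library, so they measure no spread within shIGF2BP3.

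Of 10 transcripts in common use as a readout of MAPK pathway activity, all were past the test, 3 higher and 7 lower, with a median of -0.52. ETV5, a transcription factor gene induced by ERK, fell to 40.7 ± 1.21 CPM in shIGF2BP3, against 82.9 ± 4.34 in shControl (log2 -1.03, adjusted p = 2.261e-08). The feedback genes DUSP6, an ERK phosphatase (log2 -0.92, adjusted p = 6.023e-06), and SPRY2 (log2 -0.78, adjusted p = 2.46e-05) fell, as did PHLDA1 (log2 -0.62), EPHA2 (log2 -0.70), ETV4 (log2 -0.42) and the cyclin gene CCND1 (log2 -0.24). The related feedback genes DUSP4, with 334.1 ± 5.35 CPM in shIGF2BP3 and 172.6 ± 10.1 in shControl (log2 0.95, adjusted p = 1.801e-09), and SPRY4 (log2 0.33, adjusted p = 0.000978) rose, as did EPHA4 (log2 1.19, adjusted p = 0.00561), which was not past the test without shControl replicate 1 (0.86, adjusted p = 0.0622). The list did not move in 1 direction, and ERK activity was not measured.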

How the data were processed

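The authors deposited whole-number counts per Ensembl gene, with 1 column for each of the 4 libraries and 64252 rows. The submitters' processing notes name HISAT2 2.2.0, StringTie and the build hg38. No source used here gives the annotation release, the strand setting or how reads were counted. If StringTie made the counts, they are estimates from coverage. Symbols came from a gene table and GENCODE release 29 (GRCh38), which also gave coordinates and exon lengths; promoters and miRNAs came from RefSeq (GRCh38.p14).

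Tests on the deposited counts used edgeR 4.0.16 (R 4.3.3), with filterByExpr at a smallest count of 10, TMM scaling, the robust quasi-likelihood test of shIGF2BP3 against shControl, and Benjamini-Hochberg adjustment over 19767 genes with a threshold of 0.05. Levels are CPM on TMM-scaled library sizes (mean ± SD, n = 2), and fold changes are log2 with standard errors (SE). The edgeR SE was derived from the test, as the absolute log2 fold change divided by the square root of its F statistic. The pipeline was tested on simulated data. Members, lists, rules for named genes and tests were chosen with earlier results of these data known. Named were all members, their pseudogenes, overlapping and neighbouring genes, the 3 genes on each side of NRAS in rank, the 3 nearest in profile, and every tested list gene past the test, with fuller values for up to 4 per list. Some genes that the rule and lists take are not reported here and are left out of the list counts, so a list's counts do not speak for a whole family. RASA2, SPRED2, PPP1CB, PPP1CC, FNTA, FNTB, AFDN and RAP1A, named outside that rule, were chosen after their values were seen. Results were recomputed with other scalings, other filters, other tests (DESeq2 1.42.0, limma 3.58.1 voom, an older edgeR fit chosen after seeing the data), a replicate block, another gene length and leaving out each library. Total counts lay between 26755695 and 31946756, and a count of 0 allows up to 3 counts, which covers counting error only. Replicates differed beyond sampling noise: chi-square divided by its degrees of freedom was 7.26 for the shIGF2BP3 pair and 8.43 for the shControl pair, against 146.0 between the libraries numbered 1. The labels give no batch.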

Additional observations from a re-analysis of the deposited data

How the results depend on the processing

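The members were chosen on this comparison, so their calls under the 12 alternatives are a description: NRAS, RRAS, RRAS2 and MRAS were past the threshold in each, and HRAS in none. The number of members called higher was 1 to 1 without single libraries (3 with all libraries), and the number called lower was 3 to 4. By the longest transcript, the NRAS share of the 5 RAS genes was 43.5% in shIGF2BP3 and 78.8% in shControl, in place of 53.6% and 84.8%. RAP1A reversed to 0.32 without shIGF2BP3 replicate 2 and was at -0.61 without shIGF2BP3 replicate 1. Scaling by library totals alone moved the median log2 fold change of all genes to 0.0897, and gave 5739 genes higher and 4405 lower, in place of 5120 and 5058. Of the 887 values of pathway genes under alternatives, 849 were unchanged in call and direction, 27 (12 genes) lost their call and 10 (5 genes) gained one. Where 1 library is left out, the lone library of its group is assumed to vary like the other group. Without single libraries 4407 to 4648 genes were higher and 4393 to 4807 lower; pathway genes numbered 17 to 20 higher and 27 to 33 lower. Replicate numbers did not pair the libraries, as the deviations of those numbered 1 correlated at 0.0208; with a replicate block 5291 genes were higher and 5218 lower, no member's call changed, and AFDN was the pathway gene whose call did (-0.56, adjusted p = 8.526e-09, against 0.203 without the block). Among the members, RRAS has the lowest counts and the widest error.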
